A study of Mus musculus with 6 samples.

Results

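Adipose stem and progenitor cells are the fibroblast-like cells of fat from which new adipocytes arise, and 10 genes used as their markers were followed in the RNA-seq of white adipose tissues (WATs). The genes, chosen by name, were Pdgfra, Pdgfrb, Dpp4, Pi16, Cd55, Ly6a, Cd34, Dlk1, Clec11a and Dcn, and all 10 were found among the 21456 genes of the table. Each had a mean normalized count of at least 10 over the mice, so all 10 were among the 16157 genes tested. The tissue came from 3 control mice (Ntsr2 flox/flox, genotype label control) and 3 Ntsr2 AKO mice (label depleted Ntsr2), in which Adipoq-cre removes the neurotensin receptor gene Ntsr2 from adipocytes. Both groups carry the floxed Ntsr2 allele and were fed a chow diet, and age, sex and fat depot are not given for these libraries in the sources used here. Cre under Adipoq acts in adipocytes, whereas the markers are made mostly by other cells of the tissue, so the comparison asks whether transcripts of neighbouring progenitors differed when the adipocytes had lost Ntsr2. Mice are named by group and by the number in their label (3, 4 or 5).

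In fat, progenitors lie around the vessels and in the connective tissue that surrounds the lobules. They bear receptors for platelet-derived growth factor (PDGF), which direct their division and their choice between a fibrous and an adipocyte fate. A population in the connective tissue marked by Dpp4, Pi16 and Cd55 is known as a less committed reservoir, and cells that begin to differentiate lose these markers and gain Icam1 and Pparg. Several markers are shared with other cells, such as Pdgfrb with pericytes, Cd34 and Ly6a with endothelium, and Dpp4 with lymphocytes. In a piece of whole tissue, fewer cells of a type and less RNA per cell cannot be told apart.

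The normalized counts are read counts divided by a size factor for each mouse, and the recovered totals were 60405373 to 66098226 reads for the controls, each above the 54085088 to 56268725 reads of the Ntsr2 AKO mice. The targeted gene Ntsr2 had 64.0 to 152.5 normalized counts in the controls, against 0 to 8.29 where it had been deleted (limma adjusted p = 0.499, DESeq2 adjusted p = 0.000121). All libraries held adipocyte transcripts, with Adipoq between 163803 and 220865 normalized counts. A set of 3 libraries stood apart by skeletal muscle transcripts. A list of 10 muscle genes made up 4.49% of the normalized counts of control 5, 0.353% of Ntsr2 AKO 5 and 0.161% of Ntsr2 AKO 4, against at most 0.00278% in control 3, control 4 and Ntsr2 AKO 3. Control 3 stood apart by lymphocyte and epithelial transcripts, with 717 summed normalized counts of 5 B lymphocyte genes against 55.6 to 175 in the other mice. The labels do not say that same-numbered mice were processed together.

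The progenitor markers did not separate the genotypes, and mice of the same genotype often differed severalfold. Pi16 and Dpp4 had the highest mean ratios of Ntsr2 AKO to control mice, and the PDGF receptors and Dlk1 had means below those of control mice. In limma, 0 of 10 markers had an adjusted p under 0.05, as did 0 in edgeR and 0 in DESeq2. An unadjusted p under 0.05 was reached by 0 of 10 markers in each of these tools. Among all genes tested in limma, 0.00619% passed the adjusted threshold and 8.35% the unadjusted one, against 0% and 8.19% in edgeR and 1.38% and 10.6% in DESeq2. In 0 of 10 markers were the groups without overlap, against 15% of all genes tested (6.82% higher and 8.16% lower in Ntsr2 AKO mice). The log2 fold change was above 0 in 7 markers and below 0 in 3 (above 0 in 49% of all genes tested), with a median of 0.16 against -0.0071 for all genes tested. That direction rested on single mice. Without control 3 the markers had a median of -0.06, and 3 were above 0. Without Ntsr2 AKO 5 the median was -0.21, and again 3 were above 0. With 3 mice in each group, the 95% confidence intervals of the folds were wide, and the widest still held a fold of 6.96 for Pi16.

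**Figure D1:**
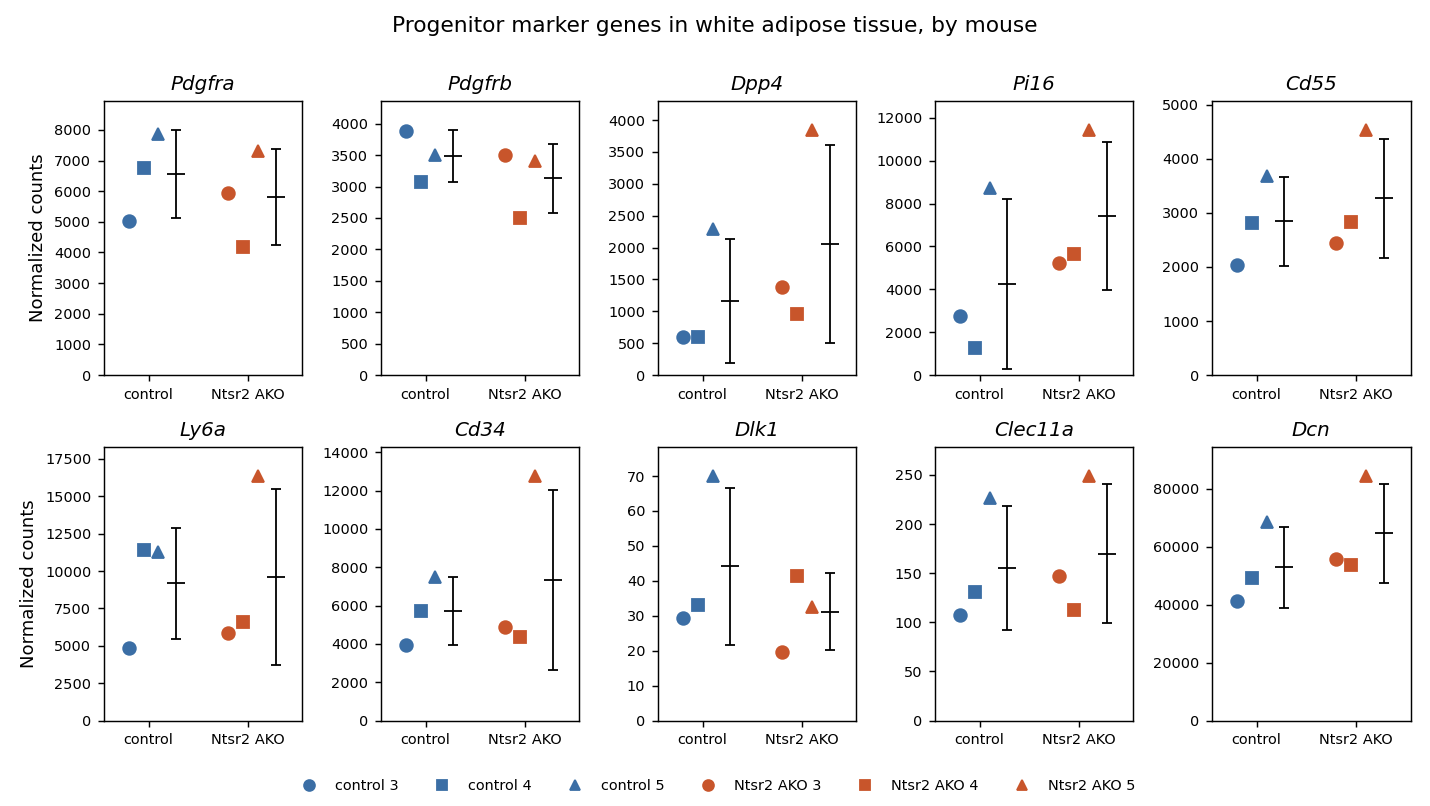
Normalized counts (y axes, starting at 0) of the 10 progenitor markers in each of 3 control (blue) and 3 Ntsr2 AKO mice (orange), where the marker shape gives the number of the mouse and the black bars the mean ± SD. The groups overlapped in all 10 genes, and Ntsr2 AKO 5 held the highest value in 7 of them.

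To set the genes beside each other, levels were divided by the merged exon length of each gene and are given here as normalized counts per kilobase. Dcn, which encodes the collagen-binding proteoglycan decorin, had the highest mean level over the 6 mice (10062 per kilobase, range 7036 to 14452). Ly6a, the gene of the stem cell antigen Sca-1, came next with 7783 (4034 to 13576), and the ranges of these 2 genes overlapped. A middle group of 5 genes followed, with mean levels per kilobase of 916 for Pi16, 896 for Cd34, 630 for Cd55, 617 for Pdgfra and 604 for Pdgfrb. Their ranges all overlapped. Within each mouse Cd34 nevertheless lay above Cd55 and Pdgfra, while the other pairs among these 5 changed order between mice. Dpp4 had 255 per kilobase (93.4 to 607), and its range reached into that of the middle group in control 5, Ntsr2 AKO 3 and Ntsr2 AKO 5. Within each mouse it lay below all 5 genes of that group. Clec11a had 54.5 (36.2 to 83.6), below every mouse for Dpp4, and Dlk1 had 6.66 (3.47 to 12.4), below every mouse for Clec11a. Dlk1 was thus the rarest marker, with 19 to 73 reads per library, so counting error adds to the spread between mice for this gene.

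**Figure D2:**
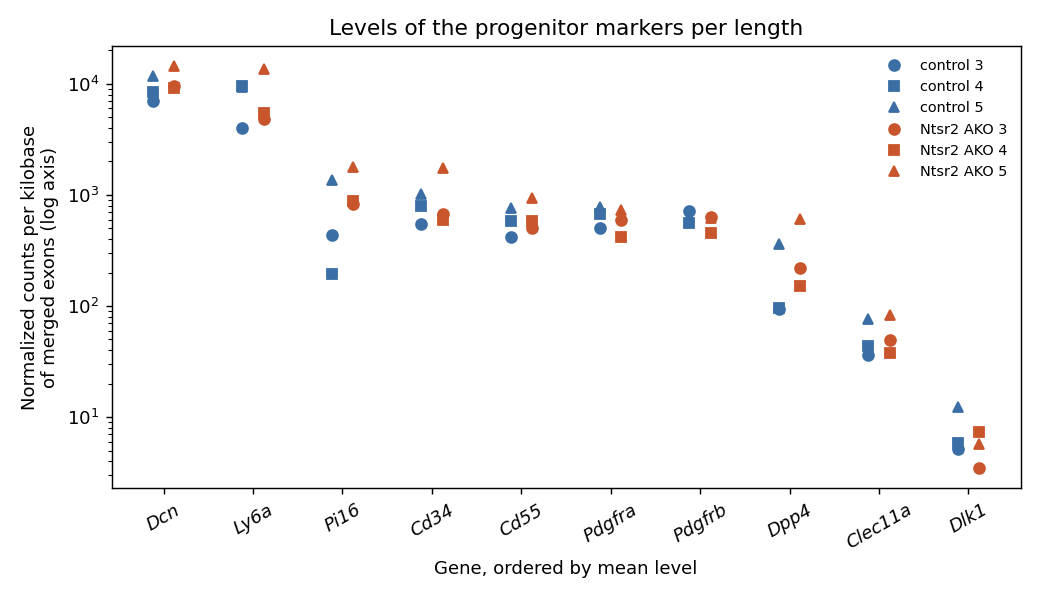
Level of each marker per mouse as normalized counts per kilobase of merged exons (log axis), with genes ordered by mean level and mice by colour and shape. Dcn and Ly6a lie at the top, 5 genes form a middle group between 196 and 1794, and Clec11a and Dlk1 lie lowest.

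Pi16 and Dpp4 had the largest estimated differences between genotypes and also the largest spread between mice. PI16 is a secreted or membrane-bound protein with a protease inhibitor-like domain, and DPP4 is a surface protease that cleaves peptide hormones. Their RefSeq promoters (GRCm38.p6) are shown because these 2 genes varied together across the mice, and the capitals mark the single match that each had to the motifs searched in the 250 bases before the start of the transcript.
Pi16: ttcctcatcttacCCAATcctgtaggggca
Dpp4: aatcttcctcccTATAAAataacacagtaa
The Pi16 stretch lies on the plus strand at chr17:29318805-29318834, with a CCAAT box that begins 64 bases before the RefSeq start. The Dpp4 stretch is read from the minus strand at chr2:62412441-62412470, with the letters TATAAA 227 bases before the start. Of the 10 markers, 7 had a promoter in the RefSeq set. A promoter of Pdgfrb, if among them, was not searched for the motifs. TATAAA was found on either strand in 1 of the markers searched, CCAAT in 2 (Pi16 and Clec11a) and the GC box GGGCGG in 2 (Cd55 and Clec11a). The shares of all 32851 promoters were 12.4%, 33.8% and 32.7%. The matches of Pi16 and Dpp4 were thus to different motifs.

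Pi16 lies on the plus strand of chromosome 17 (29317680 to 29330593, GRCm38) and is protein coding. Its normalized counts were 2753, 1245 and 8727 in control 3, 4 and 5, and 5215, 5637 and 11416 in Ntsr2 AKO 3, 4 and 5. Control 3 and control 4 were below all 3 Ntsr2 AKO mice, while control 5 was above Ntsr2 AKO 3 and Ntsr2 AKO 4. The means were 4242 ± 3957 and 7422 ± 3465 (SD, n = 3 each), a fold of 2.24 with a 95% confidence interval of 0.719 to 6.96 (1.16 on the log2 scale with a standard error of 0.69, limma adjusted p = 0.678). The lowest and the highest mouse differed 9.17-fold. DESeq2 and edgeR gave smaller log2 fold changes of 0.82 and 0.83.

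Dpp4 lies on the minus strand of chromosome 2 (62330073 to 62412231). Its normalized counts were 590, 602 and 2293 in control 3, 4 and 5, and 1387, 955 and 3839 in Ntsr2 AKO 3, 4 and 5. As for Pi16, control 3 and control 4 were the lowest mice, and control 5 and Ntsr2 AKO 5 the highest. The means were 1162 ± 979 and 2060 ± 1555 (SD, n = 3 each), a fold of 1.84 with an interval of 0.596 to 5.68 (0.88 on the log2 scale with a standard error of 0.68, limma adjusted p = 0.746). The spread within groups of both genes on the log2 scale, 1.09 for Pi16 and 1.08 for Dpp4, was larger than that of 90.7% and 90.6% of all genes tested.

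These 2 results depended most on control 5, the library with the largest share of muscle transcripts. Without control 5 the 2 groups no longer overlapped in either gene, and the log2 fold changes were 1.91 for Pi16 (standard error 0.46, limma adjusted p = 0.734) and 1.53 for Dpp4 (standard error 0.56, limma adjusted p = 0.741). With only 2 controls left, groups without overlap arise more easily than with 3, and their share over all genes was not counted. Among the 3 libraries with few muscle transcripts, control 3, control 4 and Ntsr2 AKO 3, the log2 fold changes were 1.49 and 1.22, where the lone Ntsr2 AKO mouse is assumed to vary like the controls. Without control 4 the log2 fold change of Pi16 was 0.50, and without Ntsr2 AKO 5 that of Dpp4 was 0.30. The order of the mice by muscle share, from control 5 through Ntsr2 AKO 5, Ntsr2 AKO 4, Ntsr2 AKO 3 and control 3 to control 4, was also their order by Pi16, apart from an exchange of control 5 and Ntsr2 AKO 5 at the top. For Dpp4 the same 2 mice were exchanged, as were Ntsr2 AKO 3 with Ntsr2 AKO 4 and control 3 with control 4. Ntsr2 AKO 3, control 3 and control 4 had muscle shares of at most 0.00278%, so the order among them says little about muscle. The part of muscle tissue in the values of Pi16 and Dpp4 was not tested.

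CD55, also called decay-accelerating factor, protects cells from complement and marks the same cells as DPP4 and PI16. Cd55 (chromosome 1, minus strand, 130439027 to 130462744) had 2040, 2819 and 3687 normalized counts in control 3, 4 and 5, and 2438, 2839 and 4529 in Ntsr2 AKO 3, 4 and 5. The mice with the number 5 were the highest of each group, and the groups overlapped (fold 1.14, interval 0.700 to 1.85, limma adjusted p = 0.877). Without Ntsr2 AKO 5 the log2 fold change was -0.07. Cd55b, its neighbour on the same chromosome, is listed under its older symbol Daf2, at 0 in all control mice and in Ntsr2 AKO 5 and at 28.9 and 36.3 normalized counts in Ntsr2 AKO 3 and 4, and 203 of 4848 stretches of 100 bases in Cd55 transcripts (GENCODE M21) also occur in Cd55b transcripts. A read from those stretches could belong to either gene.

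The receptors PDGFRα and PDGFRβ, which bind PDGF ligands and define the progenitor compartment as a whole, were among the steadiest markers. Pdgfra (chromosome 5, plus strand, 75152292 to 75198215) had 5026, 6746 and 7874 normalized counts in control 3, 4 and 5, and 5942, 4194 and 7303 in Ntsr2 AKO 3, 4 and 5. The highest mouse was a control and the lowest a Ntsr2 AKO mouse, and the groups overlapped (fold 0.880, interval 0.584 to 1.33, limma adjusted p = 0.850). Pdgfrb (chromosome 18, plus strand, 61045150 to 61085061) had 3888, 3070 and 3497 normalized counts in control 3, 4 and 5, and 3498, 2499 and 3404 in Ntsr2 AKO 3, 4 and 5. It varied least of the 10 markers, 1.56-fold from the lowest to the highest mouse (fold between genotypes 0.893, interval 0.675 to 1.18, limma adjusted p = 0.803). The interval of Pdgfrb was the narrowest, and a change of its mean by more than 1.18-fold up or below 0.675-fold lay outside it.

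Since Pdgfra is a marker of the whole compartment, Pi16 and Dpp4 were also taken as ratios to it within each mouse, which removes the size factor. These ratios were chosen after the values had been seen. The ratio of Pi16 to Pdgfra normalized counts was 0.548, 0.185 and 1.11 in control 3, 4 and 5, and 0.878, 1.34 and 1.56 in Ntsr2 AKO 3, 4 and 5. The groups overlapped through control 5 alone (log2 difference 1.35, p = 0.20 in an exact permutation test, two-sided as for all these ratios). The ratio of Dpp4 to Pdgfra was 0.117, 0.0893 and 0.291 in control mice and 0.233, 0.228 and 0.526 in Ntsr2 AKO mice, again with overlap through control 5 (log2 difference 1.06, exact permutation test, p = 0.30). Leaving out 1 mouse moved these log2 differences between 0.65 (without control 4) and 1.95 (without control 5) for Pi16, and between 0.67 (without Ntsr2 AKO 5) and 1.57 (without control 5) for Dpp4. Relative to Dcn the log2 differences were 0.87 for Pi16 and 0.59 for Dpp4 (exact permutation test, p = 0.30 and p = 0.40), and between Pi16 and Dpp4 the difference was 0.28 (p = 0.70). With 1 mouse left out, these ranged from 0.25 (without control 4) to 1.42 (without control 5) for Pi16 to Dcn, from 0.22 (without Ntsr2 AKO 5) to 1.04 (without control 5) for Dpp4 to Dcn, and from -0.06 (without control 4) to 0.53 (without control 3) for Pi16 to Dpp4. After adjustment over the 5 ratios the p values ranged from 0.50 to 0.70, and 3 mice against 3 cannot go below 0.10. Pi16 and Dpp4 thus varied together more closely than with Pdgfra, with a Pi16 to Dpp4 ratio of 2.07 to 5.90 in all mice, whereas the Pi16 to Pdgfra ratio ranged from 0.185 to 1.56.

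**Figure D3:**
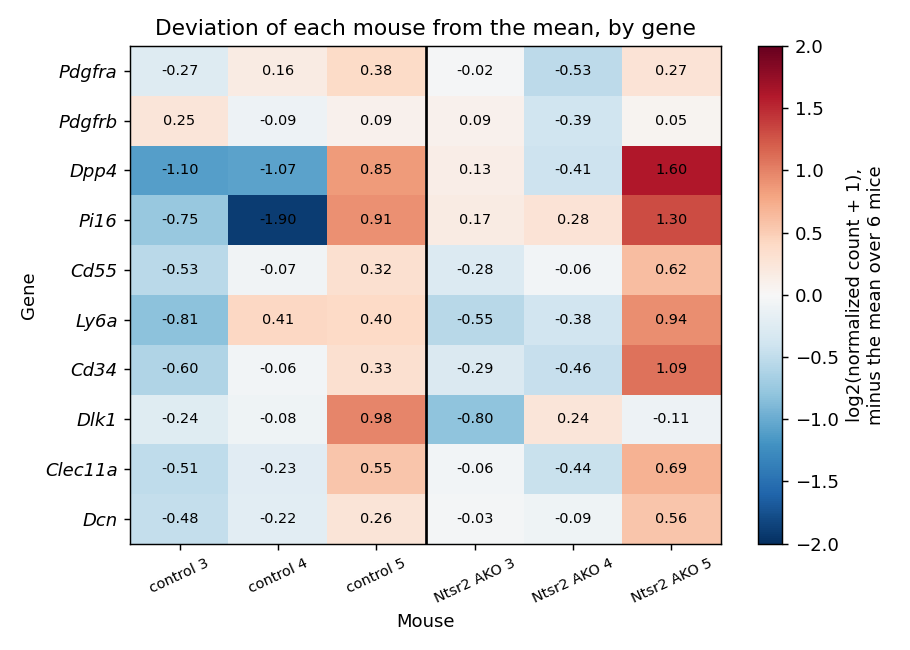
Deviation of each mouse (columns) from the mean of the gene over 6 mice (rows), on the scale of log2(normalized count + 1), with red above and blue below the mean and the value written in each cell. Control 5 is above the mean in all 10 genes and Ntsr2 AKO 5 in all but Dlk1, and the widest deviation is that of Pi16 in control 4, at -1.90.

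LY6A (Sca-1) is a surface protein anchored in the membrane by a lipid, and CD34 a sialomucin, and both are used to sort stem and progenitor cells. Ly6a (chromosome 15, minus strand, 74994877 to 74998031) had 4861, 11399 and 11249 normalized counts in control 3, 4 and 5, and 5839, 6565 and 16359 in Ntsr2 AKO 3, 4 and 5. Each group held both low and high mice, and the log2 fold change was 0.0029 with an interval of -1.15 to 1.16 (limma adjusted p = 0.999). A nearly equal mean thus came with an interval that leaves room for more than a doubling or a halving. Cd34 (chromosome 1, plus strand, 194938819 to 194961279) had 3947, 5742 and 7500 normalized counts in control 3, 4 and 5, and 4881, 4342 and 12768 in Ntsr2 AKO 3, 4 and 5. Ntsr2 AKO 5 alone lay above the control range (fold 1.17, interval 0.565 to 2.41, limma adjusted p = 0.904), and without it the log2 fold change of Cd34 was -0.27 and that of Ly6a -0.46. Both genes are also expressed by endothelium, whose 8 marker genes had their lowest sums among the 6 mice in control 5 (23356 normalized counts) and Ntsr2 AKO 5 (23276). Single genes of that list differed in this respect, since Emcn had 1265 normalized counts in Ntsr2 AKO 5, within the 922 to 1512 of the other mice, and the part of endothelium in Cd34 and Ly6a was not tested. Of 1311 stretches of 100 bases in Ly6a transcripts, 19 also occur in Ly6c1, a related gene with 8239 to 13092 normalized counts.

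DLK1, also called preadipocyte factor 1, is a transmembrane protein that holds back adipocyte differentiation. Dlk1 (chromosome 12, plus strand, 109452823 to 109463336) had 29.5, 33.0 and 70.0 normalized counts in control 3, 4 and 5, and 19.6, 41.5 and 32.4 in Ntsr2 AKO 3, 4 and 5. Control 5 was the highest mouse and Ntsr2 AKO 3 the lowest, and the other 4 lay between 29.5 and 41.5 (fold 0.735, interval 0.310 to 1.74, limma adjusted p = 0.826). Without control 5 the log2 fold change was -0.06. Dlk1 was the single marker in which Ntsr2 AKO 5 lay below the mean of all mice, unlike Pi16, Dpp4 and Dcn, in which it was the highest mouse.

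CLEC11A is a secreted glycoprotein with a lectin domain that acts on bone-forming progenitors and marks a CD142-positive stromal population of fat, and decorin binds collagen fibrils. Clec11a (chromosome 7, minus strand, 44302687 to 44306902) had 108, 131 and 226 normalized counts in control 3, 4 and 5, and 148, 113 and 249 in Ntsr2 AKO 3, 4 and 5 (fold 1.09, interval 0.556 to 2.14, limma adjusted p = 0.948). Dcn (chromosome 10, plus strand, 97479609 to 97518143) had 41075, 49204 and 68326 normalized counts in control 3, 4 and 5, and 55799, 53685 and 84368 in Ntsr2 AKO 3, 4 and 5. Control 3 and control 4 were the lowest mice for Dcn, and Ntsr2 AKO 5 was the highest for both genes. With 44630 to 83363 reads per library, Dcn has little counting error (fold 1.22, interval 0.792 to 1.89, limma adjusted p = 0.781).

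**Figure D4:**
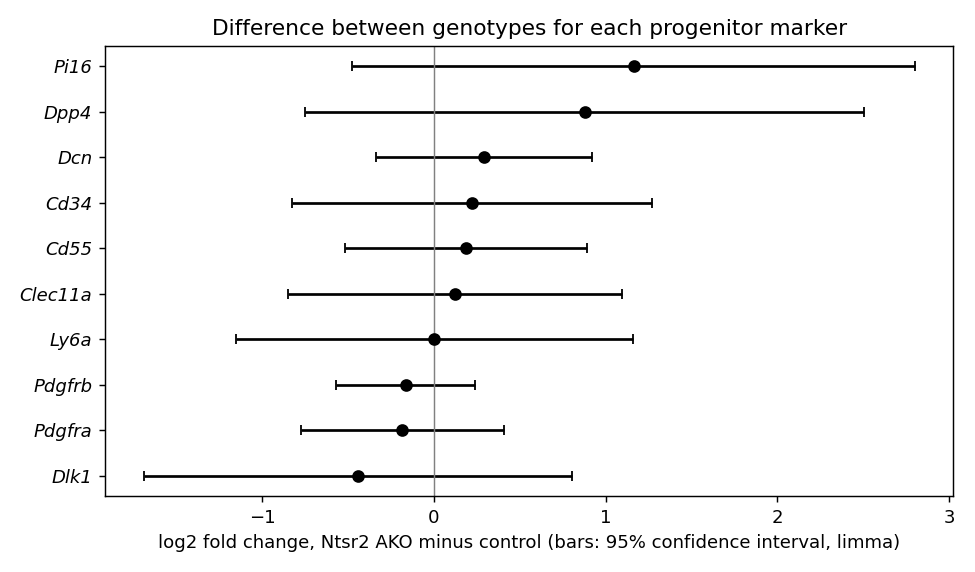
log2 fold change of Ntsr2 AKO minus control mice for each marker (points, x axis) with 95% confidence intervals from limma (bars, 3 mice in each group). All 10 intervals include 0, with the widest for Pi16 and Dpp4 and the narrowest for Pdgfrb.

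Taken by mouse, Ntsr2 AKO 5 held the highest value in 7 of the 10 markers, control 5 in 2 (Pdgfra and Dlk1) and control 3 in 1 (Pdgfrb). Control 3 held the lowest value in 6 markers. The mean of the 10 markers on the log2 scale was 0.51 above the mean of all mice in control 5 and 0.70 above it in Ntsr2 AKO 5, while the other 4 mice were 0.17 to 0.51 below. Control 5 and Ntsr2 AKO 5 also had the highest muscle shares, and Ntsr2 AKO 4, the next by muscle share, was 0.22 below the mean. The part of muscle tissue in this pattern was not tested. Reads from antisense genes could be counted with 5 of the markers, since Pdgfra, Dpp4, Pi16, Cd55 and Cd34 overlap exons of an antisense gene by 102 to 456 bases and the sources do not state that strand was used.

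Related genes of the progenitor programme were then described by lists, each by its counts beside the shares over all genes. Of 12 further genes of interstitial progenitors, 6 were above and 6 below 0, with a median log2 fold change of -0.02. Of these, 0 passed an unadjusted p under 0.05 in limma, and 1 was without overlap (Creb5, lower in every Ntsr2 AKO mouse), against 8.16% of all genes tested in that direction. The 2 with the smallest p were Dact2, an inhibitor of WNT and TGF-β signalling (log2 fold change 0.88, limma adjusted p = 0.644), and the transcription factor gene Creb5 (-0.50, limma adjusted p = 0.700). Wnt2, another gene of this population, had 155 to 794 normalized counts in the controls, a range that overlapped the 95.4 to 550 of the Ntsr2 AKO mice. These further genes of the cells that bear Pi16 and Dpp4 were thus split evenly in direction.

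Of 10 genes of committed preadipocytes, 5 were above and 5 below 0 (median 0.07), with 1 gene in each direction at an unadjusted p under 0.05, against 3.08% higher and 5.27% lower of all genes. Ebf2, a transcription factor gene of brown and beige preadipocytes, had 1353, 1587 and 1255 normalized counts in control 3, 4 and 5, and 2111, 3403 and 2659 in Ntsr2 AKO 3, 4 and 5. The lowest Ntsr2 AKO value was thus above the highest control value (0.94 on the log2 scale with a standard error of 0.20), against 6.82% of all genes without overlap in that direction. In limma the adjusted p of Ebf2 was 0.499, and in DESeq2 it was 0.00638. Icam1, an adhesion molecule of committed preadipocytes and endothelium, had means of 988 ± 222 (control) and 658 ± 113 (Ntsr2 AKO) normalized counts (SD, n = 3 each), with overlap (log2 fold change -0.57, limma adjusted p = 0.580).

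Of 8 genes of CD142 stromal cells, 0 passed an unadjusted p under 0.05 (median 0.23), and the 2 with the smallest p were Gdf10 (log2 fold change 0.64, limma adjusted p = 0.667) and Cygb (0.42, limma adjusted p = 0.685). Of 16 general fibroblast genes, 10 were above 0 and 0 passed an unadjusted p under 0.05 (median 0.05). In that list the fibroblast protease gene Fap, a relative of Dpp4, had a log2 fold change of 0.62 (limma adjusted p = 0.633), and the complement inhibitor gene Serping1 -0.31 (limma adjusted p = 0.707). Of 11 small leucine-rich proteoglycans, the family of decorin, 8 were above 0 and 0 passed an unadjusted p under 0.05 (median 0.38), with 0.38 for Ogn and 0.35 for Aspn as the 2 smallest p (limma adjusted p = 0.616 and 0.648). In these 3 lists the groups were without overlap in 0 genes and 0 reached an unadjusted p under 0.05 in limma, against 15% and 8.35% of all genes tested. The summed normalized counts of the general fibroblast list were nevertheless lower in Ntsr2 AKO mice without overlap, 1054136 to 1233813 against 1265870 to 1373810. In every mouse Gsn was the largest single part of this sum. Its normalized counts were 889715 to 1115701 in the controls and 539586 to 902398 in Ntsr2 AKO mice, with overlap.

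The ligands of the PDGF receptors were measured as well. Pdgfa, the main ligand of PDGFRα, had 777, 503 and 647 normalized counts in control 3, 4 and 5, and 429, 449 and 371 in Ntsr2 AKO 3, 4 and 5. The highest Ntsr2 AKO value was thus below the lowest control value (-0.61 on the log2 scale with a standard error of 0.20, limma adjusted p = 0.557). Pdgfb had a log2 fold change of -0.42 (limma adjusted p = 0.676), and Pdgfc and Pdgfd had 0.03 and 0.07. Of 8 tested genes of the imprinted Dlk1 cluster and the DLK1 pathway, 7 were below 0 (median -0.45). Dio3, which encodes a thyroid hormone-inactivating enzyme in the cluster, had 45.1, 281 and 274 normalized counts in control 3, 4 and 5, and 83.6, 8.29 and 15.2 in Ntsr2 AKO 3, 4 and 5, with overlap (-2.71 on the log2 scale with a standard error of 1.03, limma adjusted p = 0.567). Notch1 was lower in every Ntsr2 AKO mouse (log2 fold change -0.53, limma adjusted p = 0.600). Pdgfa was thus 1 of 4 PDGF ligands, and Notch1 1 of 8 genes of its list, that were lower without overlap. Of all genes tested, 8.16% were lower without overlap, and 49% had a log2 fold change above 0.

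**Figure D5:**
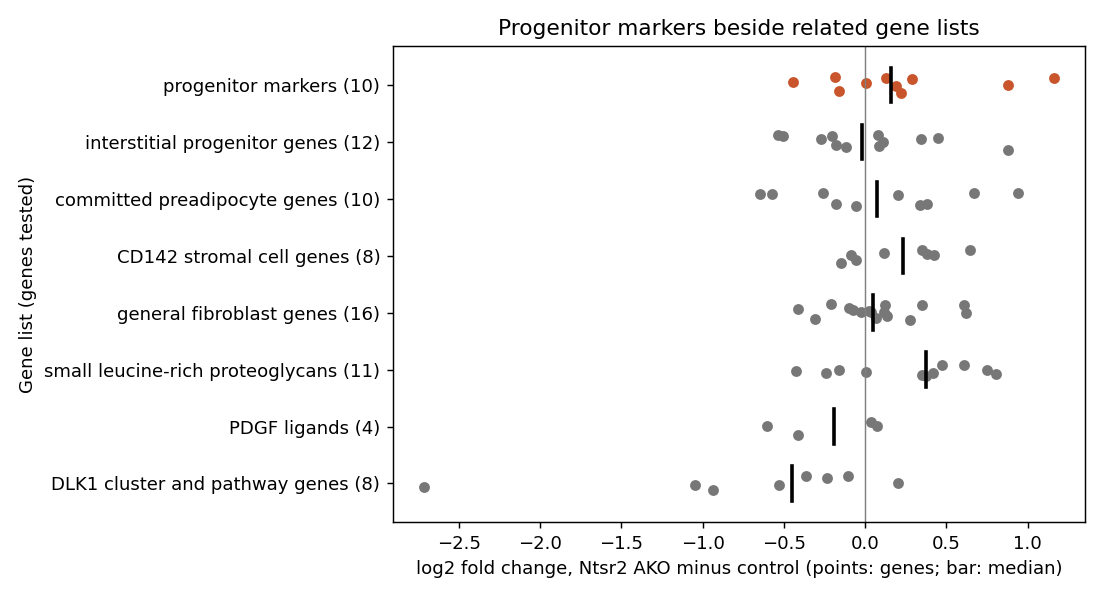
log2 fold change of Ntsr2 AKO minus control mice (x axis) for each tested gene (points) of the progenitor markers (orange) and of 7 related lists (grey), with black bars at the medians and the number of genes tested in parentheses. The markers have a median of 0.16 and the interstitial progenitor genes -0.02, and the lowest point is Dio3 at -2.71.

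Relatives of single markers and markers of other cells completed the comparison. Of 7 tested LY6 relatives, 6 tested complement regulators and 4 tested members of the DPP4 family, Dpp9 alone reached an unadjusted p under 0.05 (log2 fold change -0.62, limma adjusted p = 0.522), against 8.35% of all genes tested. Dpp9 was lower in every Ntsr2 AKO mouse, as were 8.16% of all genes tested, and it did not share the direction of Dpp4. The 2 LY6 relatives with the smallest p were Ly6i (log2 fold change 1.62, limma adjusted p = 0.671) and Ly6e (-0.21, limma adjusted p = 0.787), and for complement they were Daf2 (limma adjusted p = 0.618), for which no fold is given since all controls are at 0, and Cd46 (log2 fold change 0.50, limma adjusted p = 0.782). The 10 adipocyte genes summed to between 2485503 and 3593177 normalized counts in the controls, a range that held the 2898055 to 3068376 of the Ntsr2 AKO mice, and the 9 mural cell genes, which bear on Pdgfrb, to 21886 to 28390 and 19028 to 27259. The 9 T and NK lymphocyte genes, which bear on Dpp4, summed to 325 to 1633 and 408 to 785 normalized counts, with the highest sum in control 3, a mouse low in Dpp4. Of 6 mesothelial genes in the table, Upk3b and Wt1 were at 0 in 5 of 6 mice each, Msln reached at most 20.1 normalized counts, Lrrn4 had 52.8 to 120 and Gpm6a 72.3 to 157, and Krt19 had 84.4 to 413 in the controls against 32.1 to 68.1 (limma adjusted p = 0.575). Of the 3 mesothelial genes tested, Krt19 alone was without overlap, against 8.16% of all genes tested in that direction. The adipocyte, mural, lymphocyte and mesothelial sums overlapped between the genotypes. Sums that did not overlap, beside that of the general fibroblast list above, were all lower in Ntsr2 AKO mice. For 5 lymphatic endothelial genes they were 1569 to 2296 in the controls against 759.8 to 1438. For 6 epithelial genes they were 45.1 to 278 against 34.2 to 39.5, and for the DPP4 family 9734 to 12774 against 9231 to 9717. In the lymphatic list 2 genes were above and 3 below 0, and 0 of 5 were without overlap. Lyve1, its largest part in every mouse but control 3, overlapped (903 to 1534 in the controls against 465 to 1149). Of the tested genes, 0 of 2 epithelial genes and 1 of 4 in the DPP4 family (Dpp9) were without overlap. How often such sums separate without a difference between genotypes was not tested. The part of other cells in the marker levels was not tested.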

How the data were processed

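RNA-seq of adipose tissue from 6 mice (3 control, 3 Ntsr2 AKO) was analysed. The authors trimmed reads with Trimmomatic, aligned them with HISAT2 (build mm10 in the submitters' processing notes), obtained gene counts with StringTie and deposited their normalized counts (unit: signal), that is, reads scaled by one size factor per library. Versions and annotation are not given in the sources used here. Whole reads were recovered from the step of the low values, and 100% of values came out whole (within 0.01). All pairs of libraries differed by more than sampling noise.

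The scale of analysis was log2(normalized count + 1), with limma 3.58.1 in R 4.3.3 (lmFit, eBayes with trend) for genes averaging 10 or more normalized counts over the mice, with Benjamini-Hochberg adjustment over all 16157 genes and a threshold of 0.05. Fold changes are on this scale. The deposited values are not counts, so edgeR 4.0.16 (quasi-likelihood, TMM) and DESeq2 1.42.0, the tool of the study's methods, were run on recovered reads as alternatives. The limma, edgeR and DESeq2 fits in their main settings were tested on simulated counts, and the other procedures were not. Cd55b and Adgre1 were matched by their older symbols Daf2 and Emr1 (RefSeq synonyms). Ratios within a mouse were compared by an exact permutation test. Positions and merged exon lengths are from GENCODE M21 (GRCm38), and promoters from RefSeq (GRCm38.p6). The markers and lists were chosen with earlier results of these data known, and all 10 markers, the genes past the threshold in each related list or else its 2 genes with the smallest p, and the 5 genes most like the mean of the markers were named; Wnt2, Pdgfc, Pdgfd, Ly6c1 and single cell type markers were named after their values were seen. The mice within a group are separate samples, and the labels state no litter or batch.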

Additional observations from a re-analysis of the deposited data

How the results depend on the processing

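No marker passed the adjusted threshold under any of the 17 alternatives. At an unadjusted p under 0.05 the count of markers was 0 in the main fit. It became 2 (Pi16 and Dpp4) with the replicate number as a block and without control 5 (leave-one-out range 0 to 2). The fit with only control 3, control 4 and Ntsr2 AKO 3 leaves a single Ntsr2 AKO mouse, so no such counts are given for it. Over all genes, the 1 gene called became 219 in DESeq2 and 0 in edgeR with or without the filter. In limma this count became 0 without a filter, without the trend, with the block, and in every omission of a mouse (range 0 to 0). The unadjusted counts were 1349 in limma, 1323 in edgeR and 1680 in DESeq2. The median of the markers ranged from -0.21 to 0.41 over the omissions. The sign held in all alternatives for Pi16, Dpp4, Dcn and Dlk1 (16 alternatives for Dlk1, which misses a minimum of 50), and turned in at least 1 for the other 6. After quantile normalization the median of all genes was 0.05. Same-numbered mice had correlations of their deviations of 0.45, -0.24 and 0.41 for numbers 3, 4 and 5. Whether these mice were paired cannot be told from such values or from the labels, and they were treated as unpaired. With the replicate block, Dpp4 and Pi16 had adjusted p values of 0.508 and 0.550 (limma), and 1303 of 16157 genes tested had an unadjusted p under 0.05. Without control 5, 1055 of 16088 genes tested had one. The log2 difference in the ratio of Pi16 to Dpp4 was -0.06 without control 4. At 19 to 73 reads per library, counting error adds to the spread of Dlk1.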

Other observations

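The genes whose pattern over the 6 mice was most like the mean of the 10 markers, among 12422 genes with a mean of at least 100 normalized counts outside all lists, were Zfp174, Clec3b, Fastk, Casc4 and Afap1l2, with Pearson r on the log2 scale from 0.983 to 0.996. With 6 points and so many genes such values are a description of these libraries, and all genes of a library share its scaling and depth. Clec3b, which encodes the secreted plasminogen-binding protein tetranectin, had 9989, 11015 and 16691 normalized counts in control 3, 4 and 5, and 12893, 11337 and 19525 in Ntsr2 AKO 3, 4 and 5. Zfp174, a zinc finger gene, had 186, 199 and 301 in control mice and 221, 220 and 325 in Ntsr2 AKO mice. In both genes control 5 and Ntsr2 AKO 5 were the highest mice, as for most of the markers, and the groups overlapped. Among the markers of brown adipocytes, the lipid droplet gene Cidea was higher in every Ntsr2 AKO mouse, with 2134, 4167 and 3345 normalized counts in control 3, 4 and 5 and 4513, 5122 and 6410 in Ntsr2 AKO 3, 4 and 5 (limma adjusted p = 0.558), while Ucp1 stayed between 0 and 55.7 in all mice. Of the 4 brown adipocyte genes tested, Cidea alone was without overlap, against 6.82% of all genes tested in that direction.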
